A study of Mus musculus with 14 samples.

Results

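The 35 genes described here act in homologous recombination, in the Fanconi anemia pathway and in the handling of broken DNA ends. They form a list of names with no threshold on any value, but the list was chosen with earlier results of these data known. Shares over all genes are therefore set beside the members' counts as a description only. All 35 were found among the 55414 genes of the count table and all 35 were among the 12851 genes with enough counts to be tested. They were followed in RNA of primary bone marrow-derived macrophages (pBMDMs), grown from wildtype C57BL/6N mouse bone marrow with M-CSF. The macrophages had been kept for 24 h in the supernatant of Pfa1 mouse embryonic fibroblasts (MEFs), a line in which 4-hydroxytamoxifen (4OHT) induces the loss of the lipid peroxide-reducing enzyme GPX4 and thereby ferroptosis. The supernatant came from untreated MEFs (ctrl), from MEFs given 4OHT and dying by ferroptosis (Tam), from MEFs given 4OHT and Ferrostatin-1, an inhibitor of ferroptosis (Tam Fer1), or from MEFs given Ferrostatin-1 alone (Fer1). A further group received fresh medium without any contact with MEFs (medium ctrl). Every group with MEF supernatant had 3 samples and the medium group had 2, so 14 samples were available. The macrophages themselves were wildtype in all 5 groups, and 4OHT had been in the MEF cultures of both Tam and Tam Fer1.

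Homologous recombination repairs a DNA double-strand break by copying the sister chromatid. Broken ends are cut back to single strands, the BRCA proteins prepare these strands for pairing with the sister, and the joined molecules are later dissolved or cut. The Fanconi pathway uses the same enzymes at crosslinked DNA, where a core complex marks the FANCD2-FANCI pair with ubiquitin. Because the copying needs a sister chromatid, many of these genes are known to be transcribed mainly in S and G2 phase, whereas end joining by Ku and DNA ligase IV is open to resting cells as well. Macrophages in M-CSF are a mixture of resting and dividing cells.

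Sequencing was from the 3′ ends of RNA, which makes counts independent of gene length, and levels are given as CPM, counts divided by the size of the library after scaling by edgeR's TMM factors and written per 1000000. The total count per sample lay between 7823051 and 11052352, and 3 counts, taken as the least that could be told from none, stood for 0.272 to 0.381 CPM. All 8 macrophage markers were present in every sample, from 60.5 CPM as the lowest value of Cd14 to 36193 CPM as the highest of Lyz2. Their summed level was higher in every Tam sample (28021 to 43878 CPM) than in every ctrl sample (18863 to 27761 CPM), and it was 27509 and 34357 CPM in medium, 21536 to 27770 CPM in Fer1 and 22315 to 28853 CPM in Tam Fer1. This sum is mostly Lyz2, with 2799005 counts over all samples against 437217 for Csf1r, the next highest marker. The 12 fibroblast markers summed to between 16.7 and 126 CPM in the 14 samples, with Thy1 at 1 count in all and Lum at 6, and the ranges of ctrl (19.6 to 53.7 CPM) and Tam (18.2 to 54.8 CPM) overlapped, with medium at 36.3 and 110 CPM. The 8 neutrophil and granulocyte progenitor markers summed to between 2.87 and 55.2 CPM, with the highest sums in the medium samples (38.2 and 55.2 CPM), and Ly6g and Elane were at 0 throughout. Among the 6 dendritic and the 6 lymphocyte markers no sample summed to more than 3.17 and 0.531 CPM, and Cd3e and Nkg7 were at 0. In bulk samples fewer cells of a type and less RNA per cell cannot be told apart. The labels do not say whether samples of 1 group came from separate animals or cultures. The paper's methods put the mouse in the model, and its figure names 3 independent biological replicates. The replicate number in the titles was taken here as the mouse. The p-values of the fit to all 14 samples measure the spread left after group and replicate number.

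The first comparison asked which repair genes differed between macrophages in ferroptotic and in untreated MEF supernatant. Rad51ap1, Brip1 and Brca2 fell, by between 2.08-fold and 3.12-fold. They were the 3 of 35 members called lower, where a call is an absolute log2 fold change above 1 with an adjusted p under 0.05 in edgeR (quasi-likelihood, Benjamini-Hochberg), and 0.763% of all genes tested were called lower. No member was called higher, against 0.35% of all genes. At an unadjusted p under 0.05, 17 members were lower, against 5.93% of all genes, and 0 were higher. The log2 fold change was below 0 in 29 of 35 members (49.2% of all genes), with a median of -0.53 (all genes 0.01) and a range from -2.34 to 0.60. The 3 Tam samples all lay below the 3 ctrl samples in 14 members, which was so for 5.84% of all genes. With 3 samples against 3, the exact two-sided permutation test of a single gene cannot give a p below 0.1.

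**Figure D1:**
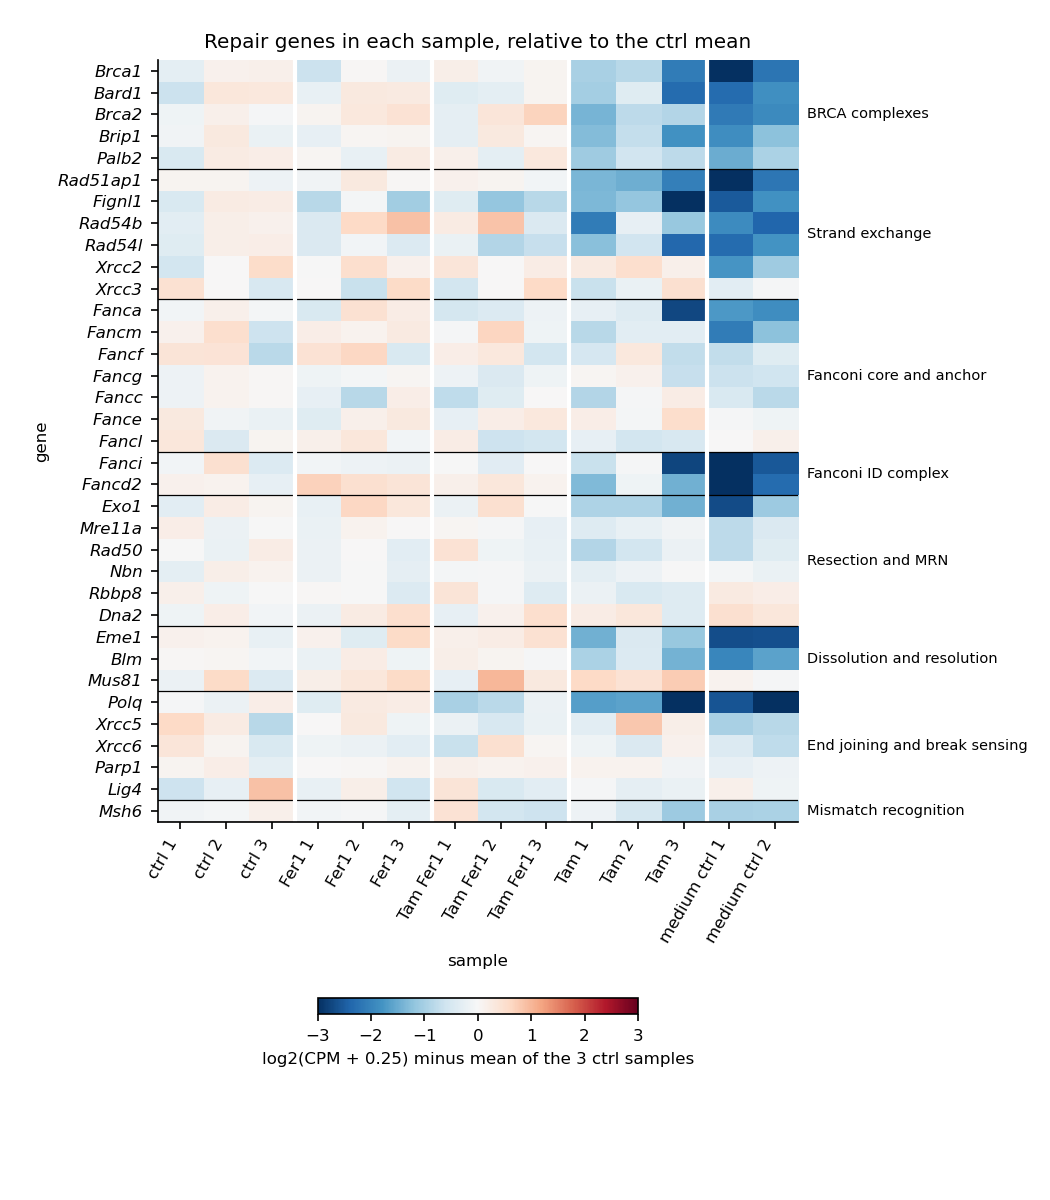
Each row is 1 of the 35 repair genes, ordered by role, and each column 1 of the 14 samples. Colour gives log2(CPM + 0.25) minus the mean of the 3 ctrl samples, with values beyond 3 in either direction drawn at the end of the scale, and blue marks lower levels. The ctrl, Fer1 and Tam Fer1 columns are pale, and the Tam and medium columns are blue for most genes of the BRCA, strand exchange, FANCD2-FANCI and BLM rows but not for most of the Fanconi core.

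Among the genes of the BRCA complexes, Brca2 (ENSMUSG00000041147, chr5:150522630-150570329, plus strand, GRCm38) encodes a protein that readies single-stranded DNA for strand exchange. Its level was 9.83, 12.0 and 10.5 CPM in ctrl samples 1, 2 and 3 and 3.90, 6.17 and 5.69 CPM in Tam samples 1, 2 and 3. All 3 Tam samples stood below all 3 ctrl samples, and the log2 fold change was -1.05 (standard error, SE, 0.21, adjusted p = 0.0310, edgeR). Brip1 (ENSMUSG00000034329, chr11:86058138-86201193, minus strand) encodes a helicase that binds BRCA1. It counted 38.7, 51.2 and 36.4 CPM in ctrl and 16.6, 25.2 and 11.6 CPM in Tam, again without overlap, with a log2 fold change of -1.26 (SE 0.20, adjusted p = 0.0125, edgeR). Tam sample 3 was the lowest for Brip1 and Tam sample 1 for Brca2.

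Brca1, the scaffold of these complexes and a ubiquitin ligase together with Bard1, was not called. It stood at 8.20, 11.2 and 11.3 CPM in ctrl and at 5.06, 5.53 and 2.15 CPM in Tam, and its log2 fold change was -1.26 (SE 0.35, adjusted p = 0.119, edgeR). The groups did not overlap, but Tam sample 3 lay well under the other two. Bard1 showed the same low sample, with 4.15, 8.44 and 8.28 CPM in ctrl and 3.16, 5.08 and 1.14 CPM in Tam. Its groups overlapped, because ctrl sample 1 lay under Tam sample 2, and edgeR gave an adjusted p of 0.271 (log2 fold change -1.11). Palb2, which bridges BRCA1 and BRCA2, had a log2 fold change of -0.85 (adjusted p = 0.213, edgeR), with its highest Tam value of 4.26 CPM under its lowest ctrl value of 4.66 CPM.

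Rad51ap1 (ENSMUSG00000030346, chr6:126923050-126939587, minus strand), whose product stimulates the pairing of DNA strands, had the smallest adjusted p of the 35. It stood at 26.7, 26.7 and 22.9 CPM in ctrl and at 9.59, 9.07 and 5.95 CPM in Tam. The gap between the groups exceeded the spread within either (25.4 ± 2.24 CPM in ctrl and 8.20 ± 1.97 CPM in Tam, SD, n = 3), with a log2 fold change of -1.64 (SE 0.25, adjusted p = 0.0100, edgeR).

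The other strand exchange genes were not called. Fignl1, which encodes an ATPase, counted 6.08, 10.1 and 9.83 CPM in ctrl and 3.16, 3.63 and 0.506 CPM in Tam (log2 fold change -1.89, adjusted p = 0.0850, edgeR). Rad54l, a motor protein that remodels DNA during strand exchange, counted 16.8, 24.7 and 25.2 CPM in ctrl and 8.96, 14.7 and 4.05 CPM in Tam (log2 fold change -1.32, adjusted p = 0.0953, edgeR). In both genes the groups stood apart and Tam sample 3 was the lowest. Its relative Rad54b had a log2 fold change of -1.15 (adjusted p = 0.360, edgeR), and Xrcc2 and Xrcc3, which act in recombination, had 0.31 and -0.24 (adjusted p of 0.855 and 0.926, edgeR).

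Of the 9 genes of the Fanconi core, its anchor and the FANCD2-FANCI pair, 0 were called by edgeR or by DESeq2, and Fancd2 alone had an unadjusted p under 0.05. Fancd2, the substrate of the core complex, counted 6.58, 6.43 and 4.97 CPM in ctrl and 2.21, 5.44 and 2.02 CPM in Tam (log2 fold change -0.94, adjusted p = 0.276, edgeR). Its partner Fanci counted 2.94, 4.52 and 2.32 CPM in ctrl and 1.90, 3.08 and 0.253 CPM in Tam, the last value being below the 3-count limit (log2 fold change -0.93, adjusted p = 0.566, edgeR). In both genes Tam sample 2 lay within the range of the ctrl samples, and the other two Tam samples lay below it. Fancm, the translocase that recruits the core complex to DNA, counted 9.83, 13.0 and 5.74 CPM in ctrl and 4.95, 7.25 and 7.21 CPM in Tam, and these groups overlapped (log2 fold change -0.53). The 6 core genes Fanca, Fancc, Fance, Fancf, Fancg and Fancl, of which Fancl encodes the ubiquitin ligase, had log2 fold changes of -0.85, -0.22, 0.20, -0.35, -0.13 and -0.46. The Fanca value came with 3.27, 2.90 and 0.380 CPM in Tam samples 1, 2 and 3, against 3.65 to 4.32 CPM in ctrl.

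Of the 6 genes of resection and the MRE11 complex 0 were called by edgeR or by DESeq2, and 3 (Exo1, Rad50 and Rbbp8) had an unadjusted p under 0.05 in the lower direction. Exo1, the nuclease for long-range resection, counted 3.04, 4.52 and 4.09 CPM in ctrl and 1.90, 1.90 and 1.27 CPM in Tam (log2 fold change -1.17, adjusted p = 0.145, edgeR), with no overlap. The log2 fold changes of Mre11a, Rad50 and Nbn, which form the complex that first binds a break, were -0.25, -0.52 and -0.16, that of its cofactor Rbbp8 was -0.34, and that of the helicase-nuclease Dna2 was 0.11. The lowest adjusted p of those 5 in edgeR was 0.430, for Rad50. Blm, the helicase that dissolves joined molecules, counted 13.3, 13.5 and 12.3 CPM in ctrl and 6.64, 9.79 and 4.68 CPM in Tam. Its groups were apart, and its log2 fold change of -0.91 (SE 0.21, adjusted p = 0.0621, edgeR) missed both limits of a call. The nuclease subunit Eme1 counted 6.69, 6.63 and 5.19 CPM in ctrl and 2.11, 4.44 and 2.66 CPM in Tam (log2 fold change -1.01, adjusted p = 0.214, edgeR), whereas its catalytic partner Mus81 had the highest log2 fold change of the 35, 0.60 (adjusted p = 0.574, edgeR).

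Of the 5 end-joining and break-sensing genes, 0 were called by edgeR, and Polq, which DESeq2 called, was the 1 with an unadjusted p under 0.05. Polq, the polymerase of the error-prone pathway that anneals short homologies, counted 3.44, 3.12 and 4.09 CPM in ctrl, 0.948 and 0.997 CPM in Tam samples 1 and 2, and 0 counts in Tam sample 3. Its log2 fold change of -2.34 was the most negative of the 35, but these are few counts (102 in the 3 ctrl samples and 20 in the 3 Tam samples) and edgeR gave an adjusted p of 0.0973. Parp1, the break sensor that makes poly(ADP-ribose), counted 99.1, 108 and 76.7 CPM in ctrl and 100.3, 99.9 and 87.6 CPM in Tam. These values overlapped, and the 95% interval of the log2 fold change ran from -0.27 to 0.32.

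The Ku genes were counted less often and their intervals were wider. Xrcc6, encoding Ku70, stood at 7.39, 6.03 and 4.09 CPM in ctrl and 5.16, 4.17 and 6.20 CPM in Tam (log2 fold change -0.17, 95% interval -0.90 to 0.55). Xrcc5, encoding Ku80, stood at 1.62, 1.21 and 0.442 CPM in ctrl and 0.738, 1.90 and 1.14 CPM in Tam (log2 fold change 0.22, 95% interval -0.88 to 1.32). Both overlapped between the groups. Lig4, the ligase of end joining, had a log2 fold change of -0.29, and Msh6, of the mismatch recognition dimer, had -0.61 (adjusted p = 0.381, edgeR) with every Tam sample under every ctrl sample.

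**Figure D2:**
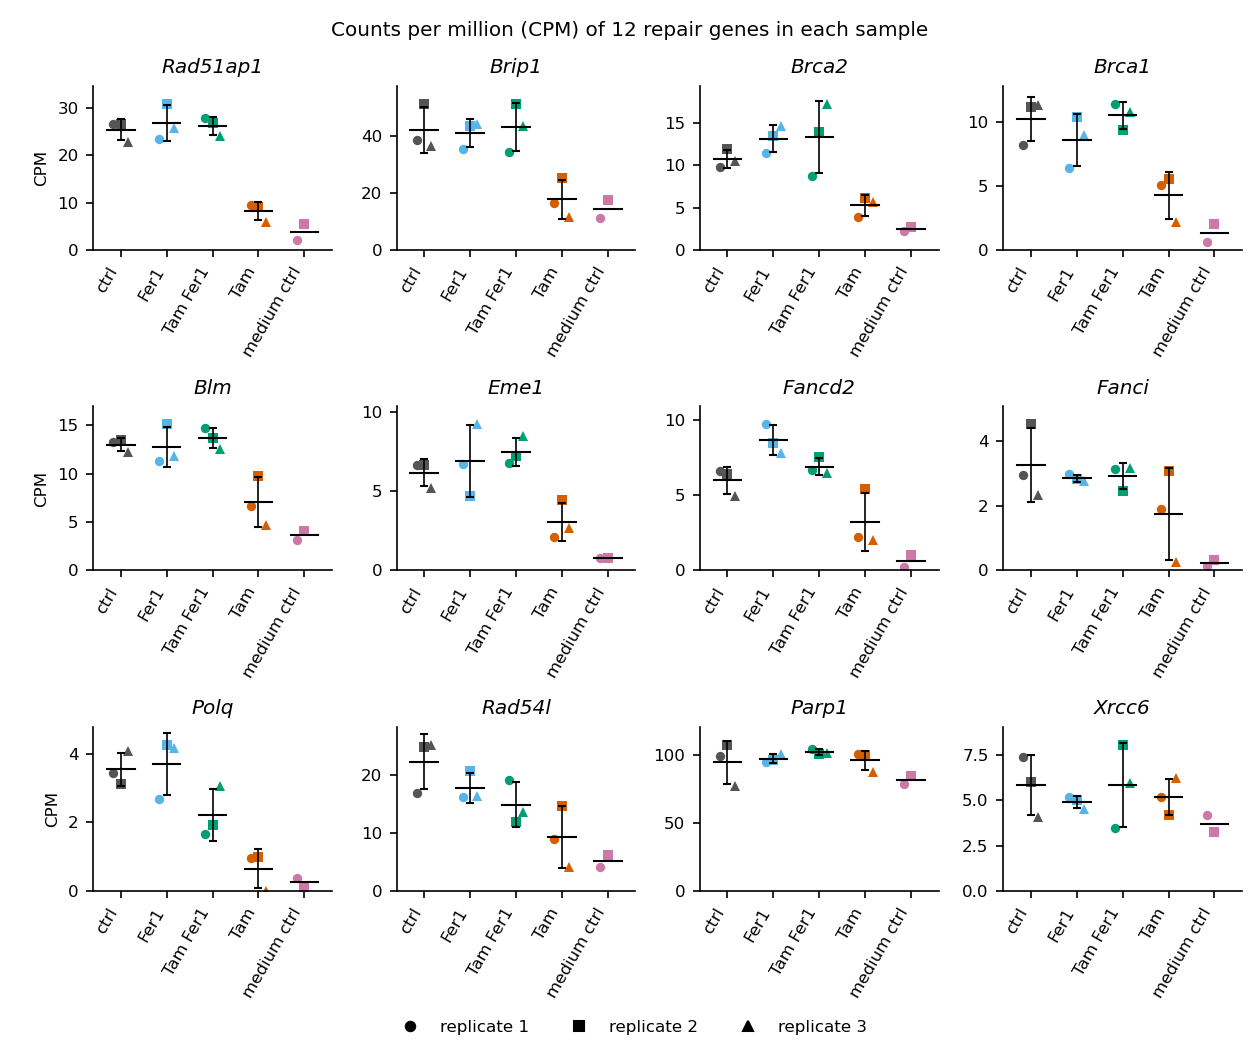
CPM of 12 repair genes (vertical axes, from 0) in each sample of the 5 groups. Symbols give the replicate number, horizontal bars the group mean and vertical bars the SD where a group had 3 samples. In the Rad51ap1, Brip1 and Brca2 panels the Tam points lie below all ctrl, Fer1 and Tam Fer1 points, and in the Parp1 and Xrcc6 panels the Tam points overlap with the ctrl points.

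The sizes of the 3 differences depended little on the fit, but their calls did. Without the replicate block the log2 fold changes of Rad51ap1, Brip1 and Brca2 were -1.63, -1.23 and -1.03 and their adjusted p-values 0.0505, 0.113 and 0.197 in edgeR, so that 0 of 35 were called. The same test called 0 without replicate 1 and 0 without replicate 2. On the Tam and ctrl samples alone it called 0, with adjusted p-values in edgeR of 0.176, 0.239 and 0.366, and DESeq2 with the block called 7, adding Brca1, Rad54l, Polq and Fignl1. Over all alternatives the adjusted p of Rad51ap1 lay between 4.6e-08 and 0.288. The library Tam 3 held the lowest Tam value of 18 members, Tam 1 of 11 and Tam 2 of 6, and the shares over all genes were not taken. Tam 3 also had the lowest total count, 7823051. Leaving out Tam 3 left Rad51ap1 and Brip1 called (log2 fold changes -1.50 and -1.03) and Brca2 not (adjusted p = 0.0611, edgeR). In this fit the median over the 35 members was -0.44.

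Ferroptotic supernatant was next compared with that of MEFs that had received 4OHT but were kept from ferroptosis. Rad51ap1, Brip1 and Brca2 were again the 3 members called lower (0.731% of all genes), with log2 fold changes of -1.69, -1.29 and -1.32 and adjusted p-values of 0.0114, 0.0126 and 0.0132 in edgeR. By edgeR 0 were called higher (0.296% of all genes), and 0 were higher at an unadjusted p under 0.05. In Tam Fer1 samples 1, 2 and 3, Rad51ap1 counted 27.8, 26.9 and 24.1 CPM, Brip1 34.5, 51.4 and 43.4 CPM and Brca2 8.78, 13.9 and 17.3 CPM. Every one of these lay above every Tam sample. Blm passed the adjusted p of 0.05 (0.0457, edgeR) at a log2 fold change of -0.99, short of the fold limit. The members' median was -0.48, and 16 of them had an unadjusted p under 0.05 in the lower direction (6.26% of all genes). This comparison shares the Tam samples with the one above. Without the replicate block Rad51ap1 alone was called, and without replicate 1 or replicate 2 the count was 0.

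With Ferrostatin-1 in the MEF culture no member passed the test for 4OHT. Between Tam Fer1 and Fer1, 0 of 35 members were called lower in edgeR (0.0233% of all genes), 0 had an unadjusted p under 0.05 in either direction, and DESeq2 called 0. The median log2 fold change was -0.02 and the range ran from -0.74 (Polq) to 0.34 (Brca1). The 3 Tam Fer1 samples all lay below the 3 Fer1 samples in 3 members (Xrcc5, Fancd2 and Fancg), against 3.2% of all genes. They all lay above them in 0 members, against 2.89% of all genes. For Rad51ap1 the 95% interval of the log2 fold change was -0.53 to 0.48, for Brip1 -0.36 to 0.47 and for Brca2 -0.45 to 0.42, and each lies above the corresponding value for Tam against ctrl. Against ctrl, Tam Fer1 (0.0311% of all genes lower) and Fer1 (0% of all genes lower) each had 0 members called by edgeR or by DESeq2 and 0 lower at an unadjusted p under 0.05. The 3 Fer1 samples all lay above the 3 ctrl samples in 1 member, Fancd2 (1.9% of all genes), and below them in 0 (1.7% of all genes).

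The 3 Tam samples all lay below the 3 Tam Fer1 samples in 12 of the 35 members, against 5.8% of all genes. They all lay above them in 0 members, against 4.4% of all genes. The same count of Tam against Fer1 was not made. The other members with low Tam values, chosen for these values, are given here in the same way. Fer1 samples 1, 2 and 3 come before Tam Fer1 samples 1, 2 and 3. Brca1 counted 6.35, 10.3 and 8.92 CPM and then 11.4, 9.35 and 10.8 CPM. Blm counted 11.3, 15.1 and 11.8 CPM and then 14.7, 13.7 and 12.6 CPM. In both genes all 6 samples lay above the 3 Tam samples. Fancd2 counted 9.72, 8.45 and 7.82 CPM and then 6.69, 7.54 and 6.45 CPM. Eme1 counted 6.75, 4.69 and 9.25 CPM and then 6.80, 7.22 and 8.50 CPM. Exo1 counted 3.27, 6.05 and 4.96 CPM and then 3.35, 5.42 and 3.79 CPM. These 3 genes were likewise above Tam in every sample, Eme1 by the narrowest gap. Bard1 counted 5.65, 8.14 and 8.04 CPM and then 5.12, 5.42 and 7.06 CPM. Fancm counted 10.3, 9.70 and 11.0 CPM and then 8.78, 14.2 and 8.29 CPM. Polq counted 2.68, 4.28 and 4.19 CPM and then 1.67, 1.91 and 3.07 CPM. They too did not overlap with Tam, although Bard1 in Tam Fer1 sample 1 was close to its highest Tam value. Palb2 ranged from 5.53 to 7.71 CPM in Fer1 and from 5.20 to 8.19 CPM in Tam Fer1, above its highest Tam value of 4.26 CPM.

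In the remaining genes Tam overlapped with Tam Fer1. Rad54l counted 16.2, 20.7 and 16.3 CPM in Fer1 and 19.1, 11.8 and 13.5 CPM in Tam Fer1. Fignl1 counted 4.66, 8.03 and 3.97 CPM in Fer1 and 6.48, 3.61 and 4.61 CPM in Tam Fer1. Both overlapped through Tam sample 2. Fanci counted 2.98, 2.82 and 2.75 CPM in Fer1 and 3.14, 2.44 and 3.17 CPM in Tam Fer1. Parp1 ranged from 94.4 to 101 CPM in Fer1 and from 100.3 to 104 CPM in Tam Fer1. Xrcc6 counted 5.16, 5.01 and 4.52 CPM in Fer1 and 3.45, 8.07 and 5.94 CPM in Tam Fer1. These 3 genes overlapped with Tam in Fer1 as well. Xrcc5 counted 0.992, 1.25 and 0.881 CPM in Fer1 and 0.837, 0.637 and 0.819 CPM in Tam Fer1, at 6 to 12 counts a sample.

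The difference between both effects was itself tested as an interaction, the Tam effect without minus that with Ferrostatin-1. In edgeR 0 members passed (0.0233% of all genes were called lower), while 10 were lower at an unadjusted p under 0.05 (3.49% of all genes). These were Brca1, Brca2, Palb2, Rad51ap1, Rad54l, Blm, Brip1, Eme1, Fignl1 and Rad50. Rad51ap1 had an interaction of -1.62 on the log2 scale and Brip1 of -1.31, both with an adjusted p of 0.195 in edgeR. DESeq2 called these 2 genes. In Fancd2, Fanci and Polq, with fewer counts, the interactions were -0.60, -0.99 and -1.60 and had adjusted p-values in edgeR of 0.975, 0.974 and 0.889.

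**Figure D3:**
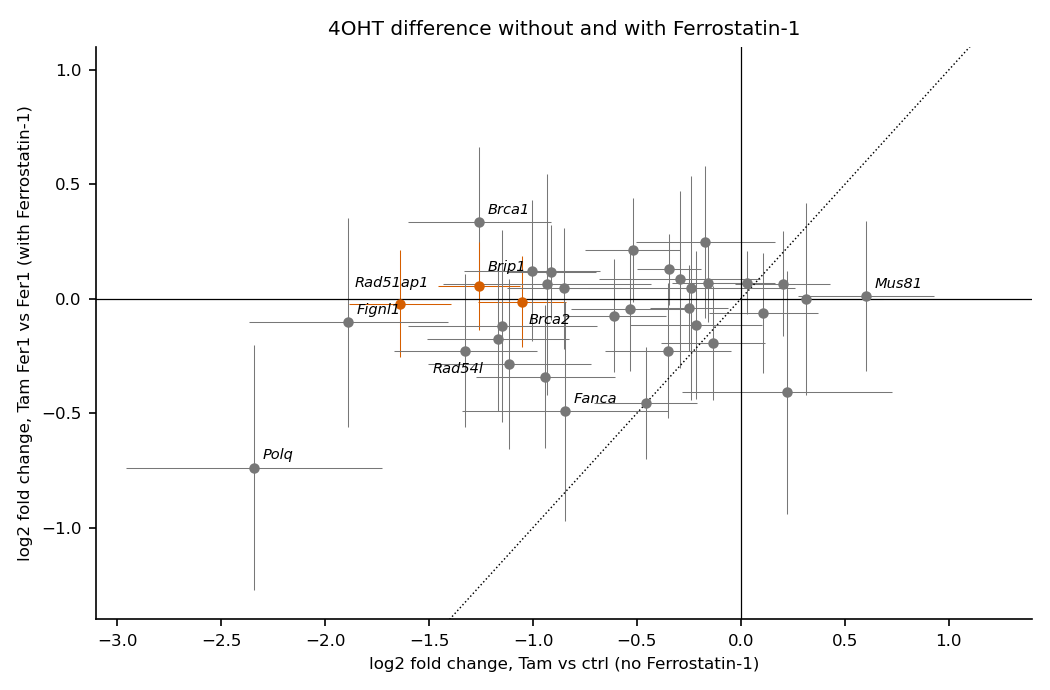
Each point is 1 of the 35 repair genes, with the log2 fold change of Tam against ctrl on the horizontal axis and that of Tam Fer1 against Fer1 on the vertical axis, 2 comparisons that share no samples. Bars are standard errors, orange marks the 3 genes called in Tam against ctrl, and the dotted line marks equal values. The points spread from -2.34 to 0.60 horizontally and from -0.74 to 0.34 vertically.

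The widest differences in these genes were between the 2 controls. In fresh medium, 17 of 35 members were called lower than in untreated MEF supernatant (4.1% of all genes), 0 were called higher (3.69% of all genes) or had an unadjusted p under 0.05 in that direction, and the median log2 fold change was -1.49 (all genes 0.01). Both medium samples lay below all 3 ctrl samples in 23 members, against 17.4% of all genes. Markers of other cells differed in this comparison as well. Col1a1 and Col1a2, 2 of the 5 fibroblast markers tested, were called higher in medium (median of the 5 on the log2 scale 1.17), and so were S100a8 and Ngp, 2 of the 4 neutrophil markers tested (median 1.73), and their part in the repair gene result was not tested. All 5 BRCA genes were called, with log2 fold changes of -3.00 (Brca1), -2.28 (Bard1), -2.03 (Brca2), -1.63 (Brip1) and -1.20 (Palb2), and so were 4 of the 6 strand exchange genes, Rad51ap1 (-2.87), Fignl1 (-2.49), Rad54b (-2.44) and Rad54l (-2.23). The 17 were completed by Fancd2 (-3.36), Fanci (-3.89), Fancm (-1.85), Exo1 (-1.99), Blm (-1.94), Eme1 (-2.95), Polq (-3.78) and Msh6 (-1.11). Without the replicate block 12 were called, and Palb2, Fignl1, Rad54b, Exo1 and Msh6 were not.

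In single samples, Rad51ap1 counted 2.03 and 5.45 CPM in medium samples 1 and 2, Brip1 11.3 and 17.5 CPM and Brca2 2.29 and 2.67 CPM. Brca1 counted 0.635 and 2.00 CPM, Blm 3.17 and 4.12 CPM and Eme1 0.762 and 0.779 CPM. All of these lay under the ctrl samples given above. Exo1 counted 0.381 and 1.67 CPM, Bard1 1.14 and 1.67 CPM, Fancm 1.90 and 3.67 CPM, Rad54l 4.19 and 6.12 CPM and Fignl1 1.27 and 2.22 CPM, likewise under every ctrl sample. Fancd2 counted 0.254 and 1.00 CPM. Fanci and Polq were at the limit of counting in medium. Fanci had 4 counts in both samples together against 95 in the 3 ctrl samples, a 13.9-fold difference per scaled library (exact 95% interval 5.24 to 51.9, counting error only), and Polq 4 against 102, a 14.9-fold difference (5.64 to 55.7).

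The other 18 members were not called in medium, and they were the Ku and ligase IV genes, Parp1, the MRE11 complex with Rbbp8, Dna2, Mus81, Xrcc2, Xrcc3 and 6 of the 7 Fanconi core and anchor genes. Fanca (-2.11) and Xrcc2 (-1.70) came close, both with an adjusted p of 0.057 in edgeR. Parp1 counted 78.2 and 84.8 CPM and had a log2 fold change of -0.25 (95% interval -0.59 to 0.09), and Xrcc6 counted 4.19 and 3.23 CPM (log2 fold change -0.68, -1.54 to 0.17). Xrcc5 counted 0.381 and 0.445 CPM, at 3 and 4 counts, with a log2 fold change of -1.49 and an adjusted p of 0.198 in edgeR. Dna2 and Rbbp8 had values in both medium samples above all ctrl samples, with log2 fold changes of 0.46 and 0.15 that did not pass.

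**Figure D4:**
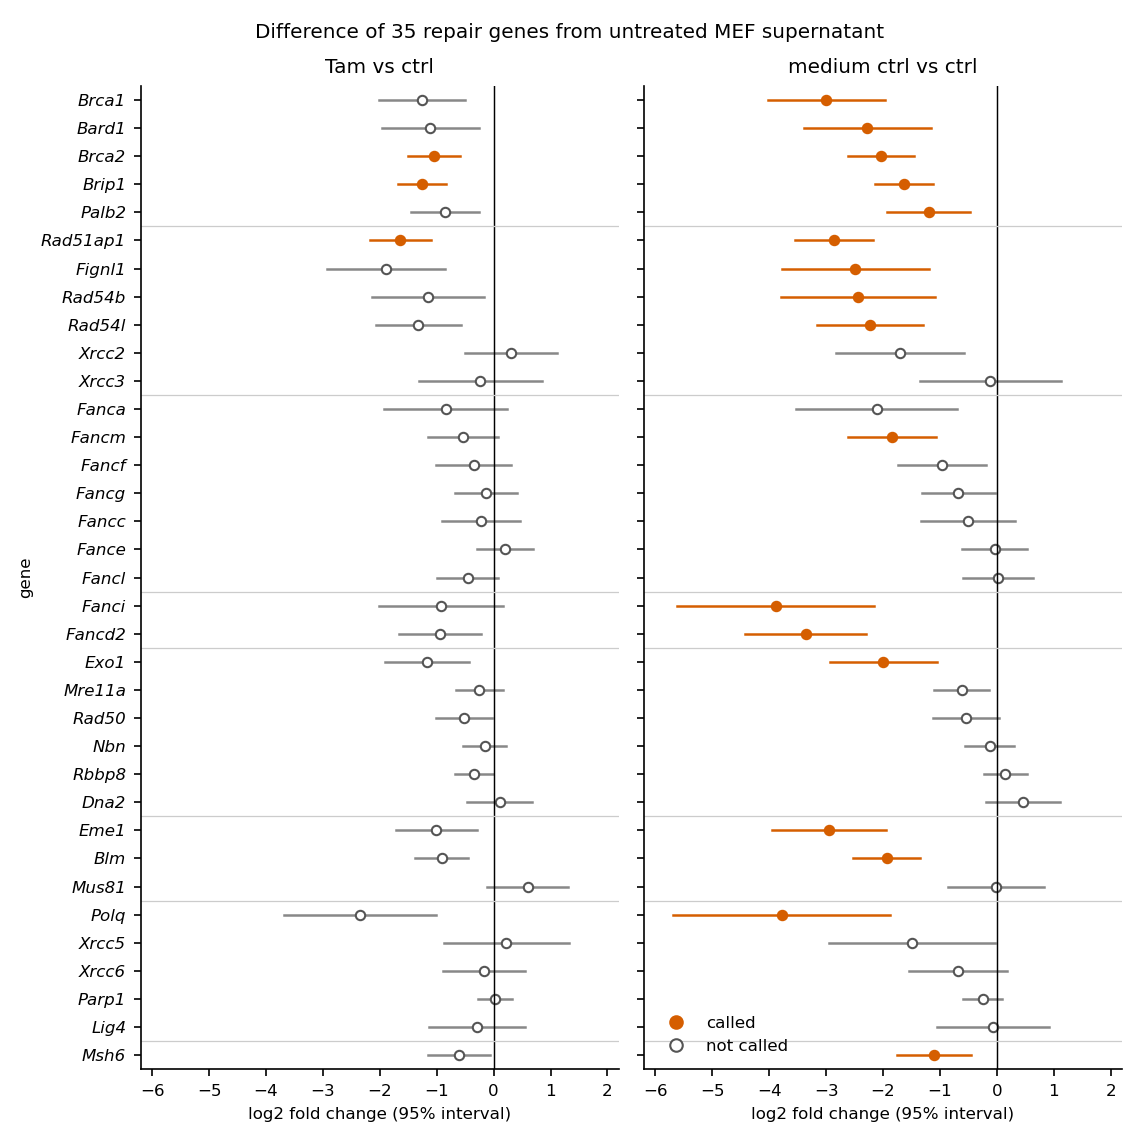
Log2 fold change (points) and 95% interval (lines) of the 35 repair genes, for Tam against ctrl on the left and medium ctrl against ctrl on the right, in the order of roles used for the heat map. Filled orange points are called, 3 on the left and 17 on the right, and grey lines part the role groups. In the BRCA rows all intervals lie below 0 on both sides.

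The mean Tam level was below the ctrl mean and above the medium mean in 25 of the 35 members, and in 25.1% of all genes tested. Compared with medium directly, Tam had 4 members called higher (1.42% of all genes), Fancd2 (2.42), Xrcc2 (2.01), Eme1 (1.95) and Rad51ap1 (1.23), with adjusted p-values of 0.0172, 0.0458, 0.0394 and 0.0482 in edgeR. For Brip1 the corresponding log2 fold change was 0.37 (adjusted p = 0.514, edgeR), with Tam at 11.6 to 25.2 CPM and medium at 11.3 and 17.5 CPM. Brip1 in Tam therefore overlapped with medium and not with ctrl, whereas Rad51ap1 overlapped with neither. Comparisons with medium rest on 2 samples, and without replicate 1 or replicate 2, which leaves 1 medium sample that is assumed to vary like the other groups, 1 and 2 members were called lower in medium and 0 higher in Tam than in medium. Fer1 samples overlapped with ctrl in Rad51ap1 and Brip1, with Rad51ap1 at 23.5, 31.0 and 25.9 CPM, Brip1 at 35.3, 43.5 and 44.1 CPM and also in Brca2, at 11.4, 13.5 and 14.6 CPM.

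Genes of DNA replication and mitosis moved in the same comparisons. Of 29 S phase genes, none of them a member, 9 were called lower in Tam than in ctrl, and of 20 mitosis genes 6 were, against 0.763% of all genes. Without the replicate block these counts were 1 and 1, and with DESeq2 11 and 12. In medium 18 and 20 were called lower than in ctrl, against 4.1% of all genes. Lower in Tam than in Tam Fer1 were 9 S phase and 5 mitosis genes, against 0.731% of all genes. Between Tam Fer1 and Fer1, 0 and 0 were called lower, against 0.0233% of all genes. The summed level of the S phase list was 831 to 1225 CPM in ctrl, 504 to 627 CPM in Tam and 487 to 535 CPM in medium. That of the mitosis list was 2000 to 2266 CPM in ctrl, 961, 1272 and 383 CPM in Tam samples 1, 2 and 3 and 157 and 213 CPM in medium. The summed level of the 35 repair genes was 663 to 680 CPM in ctrl, 465 to 510 CPM in Tam and 412 and 469 CPM in medium, and it was 615 to 698 CPM in Fer1 and 619 to 756 CPM in Tam Fer1. Mki67, a marker of dividing cells, counted 271, 292 and 348 CPM in ctrl and 96.8, 171 and 71.4 CPM in Tam (log2 fold change -1.46, adjusted p = 0.0258, edgeR), and the helicase subunit Mcm5 had -1.0 (adjusted p = 0.0428, edgeR). Pcna, the polymerase clamp that is also used in repair, had -0.52 (adjusted p = 0.564, edgeR). Tam sample 3 had the lowest mitosis sum of the Tam samples and the lowest Tam value in 18 of the 35 members. The sum of the 35 was 465, 510 and 480 CPM in Tam samples 1, 2 and 3. Rad50, Parp1 and Rbbp8, none of them called, weighed most in this sum. Their ctrl means were 186, 94.5 and 68.2 CPM, and the mean sum of the 35 in ctrl was 674 CPM. Rad50 ranged from 100 to 164 CPM in Tam and overlapped with ctrl. The order of the Tam sums can therefore rest on single genes. Of the 8 macrophage markers none met both limits of a call in edgeR, but Adgre1, Csf1r, Mertk and Lyz2 were higher in Tam than in ctrl at an unadjusted p under 0.05, with log2 fold changes of 0.46, 1.03, 0.63 and 0.50, and Adgre1, Mertk and Fcgr1 were higher in medium at an adjusted p of 0.0146, 0.0296 and 0.0374 (edgeR). The part of dividing cells in the repair gene result was not tested, nor was that of the macrophage markers, whose sum was higher in Tam.

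**Figure D5:**
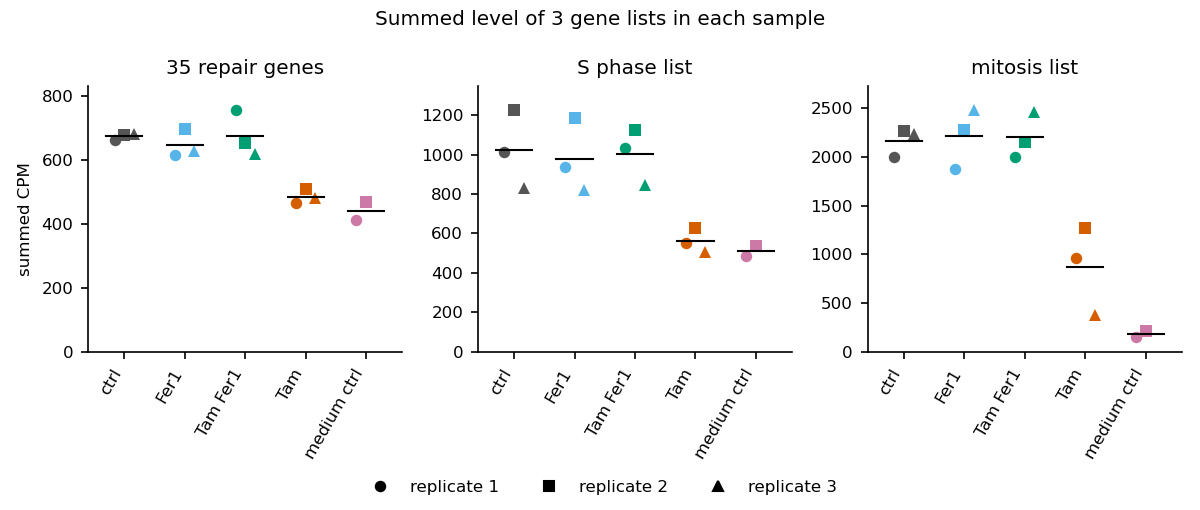
Summed CPM (vertical axes, from 0) of the 35 repair genes, the 29 S phase genes and the 20 mitosis genes in each sample, with bars at the group means. All 3 sums are lower in the Tam and medium samples than in the ctrl, Fer1 and Tam Fer1 samples, and the mitosis sum has its lowest Tam value, 383 CPM, in replicate 3.

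Some repair genes outside the 35 were called too. From a list of 66 further genes of double-strand break, crosslink and mismatch repair, 65 were found and tested, 3 were called lower in Tam than in ctrl (0 without the replicate block), where 0.763% of all genes were, and the median log2 fold change was -0.13. Among the 3 called were Gen1, which cuts joined molecules, and Atad5, which unloads the PCNA clamp. Gen1 had a log2 fold change of -1.24 and Atad5 of -1.07, with adjusted p-values in edgeR of 0.0448 and 0.0270. In medium 8 of the 65 were called lower, against 4.1% of all genes, among them Parpbp, a partner of PARP1, at -3.39. Of 12 p53 target genes, 11 were tested and the lowest adjusted p in Tam against ctrl was that of Ccng1, 0.576 (edgeR).

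The bases upstream of the gene starts that RefSeq gives were searched for letters known from promoters of cell cycle genes. In RefSeq promoters of GRCm38.p6, 28 of the 35 members had an entry, and the 250 bases before each start were searched on both strands. An E2F sequence (TTTGGCGC, TTTCCCGC, TTTGCCGC or TTTCGCGC) was found in 4 of the 28 (14.3%) and in 1.86% of all 32851 promoters. Here and below, a member counts once if any of its promoters matched, whereas the share over all promoters counts each promoter. The shares are therefore not in the same unit. Of these 4, Bard1 and Brca2 are among the members called in medium and Fancg and Xrcc6 are not. The windows are shown because they set both kinds side by side, 5′ to 3′ on the strand of the gene, with the E2F letters, in either orientation, in capitals. They lie at chr1:71103138-71103217 (Bard1, minus strand), chr5:150522417-150522496 (Brca2, plus strand), chr4:43010310-43010389 (Fancg, minus strand) and chr15:82016287-82016366 (Xrcc6, plus strand). GENCODE M21 begins Fancg and Xrcc6 further upstream, so that all 80 bases of these 2 windows lie inside its genes, as do 9 of the 80 in Bard1 and 0 in Brca2.
Bard1: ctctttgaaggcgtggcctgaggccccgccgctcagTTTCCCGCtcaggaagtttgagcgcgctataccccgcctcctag
Brca2: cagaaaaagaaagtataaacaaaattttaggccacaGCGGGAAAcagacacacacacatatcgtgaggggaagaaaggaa
Fancg: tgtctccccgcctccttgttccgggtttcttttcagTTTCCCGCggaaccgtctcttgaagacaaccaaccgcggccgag
Xrcc6: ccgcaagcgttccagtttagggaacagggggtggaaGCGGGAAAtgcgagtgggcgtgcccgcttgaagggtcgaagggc

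The same 8 letters, TTTCCCGC or its reverse complement, were thus the match in all 4. In Tam against ctrl their log2 fold changes were -1.11 (Bard1), -1.05 (Brca2), -0.13 (Fancg) and -0.17 (Xrcc6), of which Brca2 alone was called. The CCAAT box was found in 14 of the 28 members (50%, against 33.8% of all promoters), 7 of the 14 called in medium and 7 of the 14 not called. Rad51ap1 and Brip1, the 2 other genes called in Tam, are among them. Their windows nearest to the start, with CCAAT or its reverse complement in capitals, lie at chr6:126939588-126939667 and chr11:86201194-86201273, both on the minus strand.
Rad51ap1: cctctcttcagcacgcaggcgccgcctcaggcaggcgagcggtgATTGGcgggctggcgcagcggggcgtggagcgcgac
Brip1: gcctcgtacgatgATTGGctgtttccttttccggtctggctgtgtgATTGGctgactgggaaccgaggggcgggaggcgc

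The CHR element (TTTGAA or TTCGAA), known from promoters of mitotic genes, was found in Bard1 and Polq, 2 of the 28, and in 17.1% of all promoters. These matches describe the letters in 1 window per gene start and say nothing of what binds there.

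The 3′ ends of 7 members, within 500 bases of the end of the gene, overlap an exon that GENCODE M21 (GRCm38) gives to another gene on the other strand. They are Fancl, Eme1, Msh6, Mus81, Fancd2, Fanci (which meets Polg) and Fanca, and whether reads were counted by strand is not given in the sources used here. None of the 3 genes called in Tam against ctrl is among them, but Fancd2, Fanci, Eme1 and Msh6 were called lower in medium than in ctrl. Fancd2 and Eme1 were also called higher in Tam than in medium.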

How the data were processed

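Expected counts per gene of 14 samples were used, which the authors deposited as estimated counts without normalization. Per the labels and the paper's methods, libraries were made with a 3′ kit (QuantSeq) and the authors used STAR 2.7.10a and Salmon 1.5.2. The submitters' processing notes name GRCm38 as well as GRCh38, and the identifiers are those of mouse genes. The deposited table of the authors' own comparisons (fold changes, p-values and CPM) was not used.

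Counts were rounded (30109 values were not whole), scaled by TMM and fitted with edgeR 4.0.16 (R 4.3.3) over all 14 samples, with group and replicate number, and tested by quasi-likelihood, adjusting p-values by Benjamini-Hochberg over the 12851 genes left by filterByExpr (minimum count 10). The block follows the study's methods, which model the mouse, and the replicate number was taken to stand for it. Deviations from the group means correlated with a median r of 0.265 over genes for 26 pairs of samples sharing a number (lowest -0.057) and -0.134 for 52 other pairs, and 13 of 14 samples correlated best with a sample of their own number. Genes are not independent replicates. Intervals of log2 fold changes use the standard error derived from the F statistic. Samples were grouped by their labels. Fits were tested on simulated counts.

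The members and lists were chosen with earlier results of these data known. Values in every sample are given for the 14 members with the smallest adjusted p over the comparisons, Brca2 included, and for Xrcc5, Xrcc6 and Parp1. Individual results of a few listed genes are left out. Alternatives were RLE factors, other filters, no block, DESeq2 1.42.0, only the groups compared, no fold limit, and replicates left out. Promoter sequences are from RefSeq (GRCm38.p6). Count limits cover counting error only, since reads have no molecular identifiers in these files.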

Additional observations from a re-analysis of the deposited data

How the results depend on the processing

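Of the 35 members, the count called lower in Tam against ctrl was 3, and 7 with no filter on low counts, 7 with DESeq2, 0 with no replicate block, 0 with only the groups compared and 0 to 2 with a replicate left out. The count in Tam against Tam Fer1 was 3, and 5, 5, 1, 1 and 0 to 3 in that order. In medium against ctrl it was 17, and 12 with no replicate block, which lost Msh6, Fignl1, Exo1, Palb2 and Rad54b. It was 16 without replicate 3 and 18 without the library Tam 3 alone, a choice made after seeing the data. Without replicate 1 or replicate 2 a single medium sample is left, and the median log2 fold change of the members was then -1.13 and -1.54. Higher in Tam than in medium were 4, and 7 with no filter, 8 with DESeq2, 0 with no replicate block, 8 with only the groups compared and 0 to 9 with a replicate left out. The interaction had 0 lower, 1 with no filter and 2 with DESeq2. The cause of these changes was not tested, beyond the fewer samples of the fits that leave libraries out. RLE factors, a CPM filter and no fold limit kept all these counts within 1.5 times, and the 14 members apart between Tam and ctrl stayed 14 with RLE factors and with CPM of the raw library total. The log2 fold change of Tam against ctrl changed sign with a replicate left out in 9 members, none of them called, Xrcc3 (-0.78 to 0.34), Xrcc5 (-0.13 to 0.89, and -0.07 without replicate 2), Xrcc6 (-0.54 to 0.041), Fancc (-0.42 to 0.0071), Fance (-0.053 to 0.39), Fancg (-0.32 to 0.13, and 0.09 without replicate 3), Dna2 (-0.056 to 0.39), Parp1 (-0.056 to 0.11) and Lig4 (-0.64 to 0.27). Depth limits Xrcc5, Fanci and Polq most, which were at 4 counts or fewer in each medium sample.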
